A study of Mus musculus with 12 samples.

Results

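A set of 9 genes of amino acid supply, 3 of serine synthesis (Phgdh, Psat1 and Psph), 1 of asparagine synthesis (Asns), 2 of proline synthesis (Aldh18a1 and Pycr1) and 3 of amino acid transport (Slc7a5, Slc3a2 and Slc7a11), was examined in the left ventricle of mice with and without cardiomyocyte Gch1. They were chosen by name, as the rows whose Ensembl identifier carries 1 of these symbols in GENCODE M21, and all 9 were found among the 26921 genes of the count table. RNA-seq was performed on hearts of 16-week-old mice, with 6 libraries from WT mice, which carried floxed Gch1 alleles (Gch1 flox/flox), and 6 from cmGch1 KO mice, which carried the same floxed alleles and a heterozygous α-MHC-Cre transgene. Gch1 encodes the first enzyme of tetrahydrobiopterin synthesis, and the α-MHC promoter drives Cre recombinase in cardiomyocytes, so other cells of the ventricle kept the gene. The mice were littermates, and no library came from mice with Cre but without floxed alleles, so that an effect of Cre and an effect of the deletion cannot be told apart.

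Serine is made from the glycolytic intermediate 3-phosphoglycerate in 3 steps, catalysed in turn by PHGDH, PSAT1 and PSPH. Asparagine synthetase makes asparagine from aspartate with glutamine as the nitrogen donor. Proline is made from glutamate by the bifunctional ALDH18A1 and by PYCR1, which is mitochondrial. SLC7A5 (LAT1) exchanges large neutral amino acids such as leucine across the cell membrane, and SLC7A11 (xCT) exchanges cystine for glutamate. Both are light chains that reach the membrane bound to the heavy chain SLC3A2 (CD98). Most of these genes are known targets of ATF4, a transcription factor whose translation rises when eIF2α is phosphorylated, for example during amino acid shortage or mitochondrial stress.

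Depth ranged from 19921398 to 37917806 counts per library. Levels are given as cpm (counts relative to library size, scaled by the TMM factors of edgeR), as mean ± SD. The deleted gene, Gch1, fell from 10.7 ± 0.974 cpm (n = 6) to 5.48 ± 0.855 cpm (n = 6) in cmGch1 KO hearts, with every cmGch1 KO library below every WT library (log2 fold change -0.96, adjusted p = 6.88e-04, where adjusted p-values are Benjamini-Hochberg values of the edgeR quasi-likelihood F-test). The labels give no sex, and cmGch1 KO replicates 2 and 3 stood apart: Xist was between 86.7 and 99.0 cpm in them and at most 0.234 cpm in the other 10 libraries. Both had 0 counts of 4 Y-linked genes, which summed to between 167 and 192 cpm elsewhere. This is the pattern of female hearts in these 2 libraries and of male hearts in the other 10. By this expression, females occurred in the cmGch1 KO group alone. Mitochondrial genes held 14.9% and 16.1% of the counts of the 2 libraries, against 18.3% to 22.9% in the others. For Slc7a11 and the genes of the lists that were not called, values are given with these 2 libraries. The other 8 genes and the called genes of the amino acid and stress lists are given with and without them. A covariate of sex-linked expression, used below, was 7.45 and 7.64 in these 2 libraries and between -6.27 and -5.67 in the other 10. Since both are cmGch1 KO libraries, a fit with this covariate is not a check separate from leaving them out.

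Slc7a5 rose in cmGch1 KO hearts (log2 fold change 0.78, adjusted p = 0.0117 by edgeR), a call that was lost without both libraries with Xist expression (0.62, adjusted p = 0.0885) and under a covariate of sex-linked expression (0.61, adjusted p = 0.0515). Asns, which lay under the expression filter, rose in a fit without filter. That call was kept in 5 of the 12 such fits that left out 1 library. Phgdh, Psat1 and Aldh18a1 had higher means in cmGch1 KO hearts without passing the test, Pycr1 and Slc3a2 had smaller differences relative to their errors, Psph had nearly the same mean in both genotypes, and Slc7a11 was at the limit of detection. Only 5 of the 9 genes (Psat1, Psph, Aldh18a1, Slc7a5 and Slc3a2) passed the expression filter of more than 3 cpm in at least 6 libraries. Of these, Slc7a5 passed the test at a false discovery rate (FDR) of 0.05, where 76 of all 11225 tested genes (0.677%) were called higher and 50 (0.445%) lower (116 and 36 when scaled by library size alone). In a fit without filter, over the 24643 genes with a count, Slc7a5 and Asns were called higher, where 0.349% of all genes were. In 1 of the 9 genes every cmGch1 KO library lay above every WT library, as in 0.682% of the genes without filter. At least 5 of the 6 cmGch1 KO libraries lay above every WT library in 4 of the 9 genes, against 2.24% of all genes, and at least 4 did so in 7 of the 9, against 5.65%. Without Slc7a11, the median log2 fold change of the other 8 genes was 0.50 in the fit without filter, and that of all genes was -0.00. The 9 genes were chosen with earlier results of these data known, so these comparisons with all genes are a description and not a test.

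**Figure D1:**
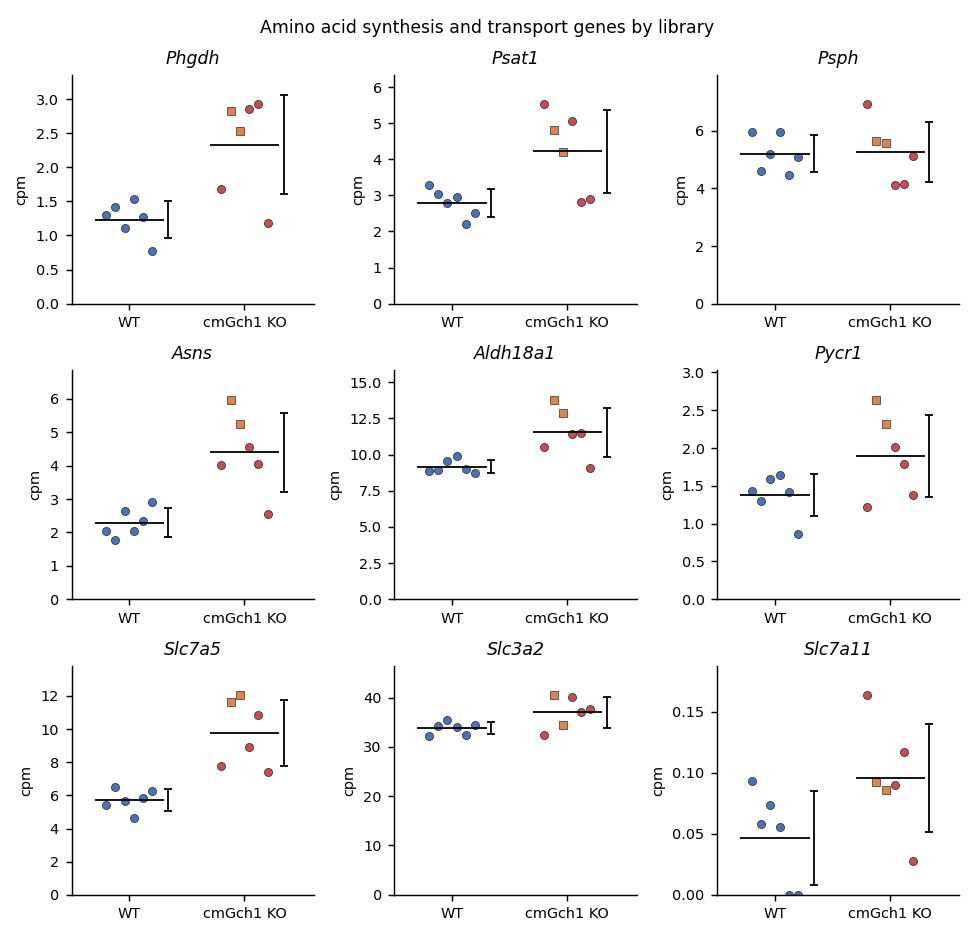
Expression of the 9 genes in each library, in TMM-scaled cpm on linear axes that start at 0 (blue, WT; red, cmGch1 KO; orange squares, the cmGch1 KO replicates 2 and 3 with Xist expression; line and bar, mean and SD of 6 libraries). For Slc7a5 the cmGch1 KO libraries begin at 7.42 cpm, above the highest WT library at 6.49 cpm, whereas the groups overlap in the other 8 genes.

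Levels between genes were compared per length, as cpm per kb of exons. Slc3a2 had the highest level of the 9 genes in both genotypes, at 9.57 ± 0.355 cpm per kb (n = 6) in WT. In WT it was followed by Aldh18a1 at 2.25 ± 0.113, Slc7a5 at 1.54 ± 0.180 and Psph at 1.20 ± 0.148 cpm per kb. Asns, at 0.837 ± 0.157, Psat1, at 0.657 ± 0.0908, Phgdh, at 0.496 ± 0.107, and Pycr1, at 0.350 ± 0.0705 cpm per kb, came below, with Slc7a11 last. Ranges over the 6 WT libraries did not overlap between Slc3a2 and Aldh18a1, between Aldh18a1 and Slc7a5 or between Pycr1 and Slc7a11, and overlapped between all other neighbours in this order. In cmGch1 KO hearts Asns, at 1.61 ± 0.430 cpm per kb, stood above Psph at 1.21 ± 0.242, with overlapping ranges, and the range of Slc7a5 also overlapped that of Aldh18a1. The rest of the order was that of WT. The exon length used is that of all annotated exons of a gene, so these levels are lower limits where the heart uses a shorter transcript.

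Promoter windows (250 bases before to 50 after the start) were taken from RefSeq on the mouse build GRCm38.p6 for 8 of the 9 genes, all but Slc7a5, with 2 windows for Psat1. These were searched on both strands for TGATGNAA, the C/EBP-ATF response element through which ATF4 acts with C/EBP partners. The element was in 3.97% of all 32851 windows and in 4.51% of the 27025 genes with a window. It was present in the windows of 3 genes, Asns, Pycr1 and Slc7a11, which are shown because they are the genes with a match. The 250 bases before the start are printed 5′ to 3′ on the gene's own (minus) strand, with the matches in capitals. The windows lie at chr6:7693210-7693459 (Asns), chr11:120643749-120643998 (Pycr1) and chr3:50443614-50443863 (Slc7a11).
Asns: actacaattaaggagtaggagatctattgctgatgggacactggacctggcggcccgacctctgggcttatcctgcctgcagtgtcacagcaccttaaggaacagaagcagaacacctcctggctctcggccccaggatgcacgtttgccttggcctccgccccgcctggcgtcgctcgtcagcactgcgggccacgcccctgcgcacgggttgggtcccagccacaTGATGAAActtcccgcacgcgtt
Pycr1: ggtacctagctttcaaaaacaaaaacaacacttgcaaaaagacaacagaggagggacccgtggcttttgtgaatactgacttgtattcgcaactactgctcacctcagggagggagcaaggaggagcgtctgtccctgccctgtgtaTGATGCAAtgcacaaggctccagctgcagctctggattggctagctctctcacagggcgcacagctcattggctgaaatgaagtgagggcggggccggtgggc
Slc7a11: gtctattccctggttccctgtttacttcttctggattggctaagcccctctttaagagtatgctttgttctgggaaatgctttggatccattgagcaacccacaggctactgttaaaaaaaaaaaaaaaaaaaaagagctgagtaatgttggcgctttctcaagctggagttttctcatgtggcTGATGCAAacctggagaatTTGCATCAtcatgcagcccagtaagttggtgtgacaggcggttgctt
The match in Asns begins 23 bases before the start, that in Pycr1 103 bases before it, and those in Slc7a11 66 and 47 bases before it, the second on the opposite strand. The letters of the element were not in the windows of Phgdh, Psat1, Psph, Aldh18a1 and Slc3a2. Of the 3 genes with a match, Asns was called higher in the fit without filter, Pycr1 did not pass the test and Slc7a11 was hardly detected.

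Phgdh (ENSMUSG00000053398, chromosome 3, 98313170-98339990, minus strand) encodes the first and committed enzyme of serine synthesis. Its level was between 0.776 and 1.53 cpm in WT (median 1.28) and between 1.19 and 2.92 cpm in cmGch1 KO hearts (median 2.68), from 17 to 95 counts per library. In 5 of 6 cmGch1 KO libraries it was above every WT library, and replicate 6 was at 1.19 cpm, within the WT range. The means were 1.23 ± 0.265 and 2.33 ± 0.727 cpm (two-sided exact permutation p = 0.0130, n = 6 per group). Phgdh lay under the expression filter, and in the fit without filter its log2 fold change of 0.88 (standard error 0.23) did not pass the test (adjusted p = 0.141 by edgeR). Without cmGch1 KO replicate 6 the same fit gave 1.02 with an adjusted p of 0.0300, and none of the other 11 fits without 1 library called it. It was 0.78 without both libraries with Xist expression (adjusted p = 0.575).

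Psat1 (ENSMUSG00000024640, chromosome 19, 15904678-15947337, minus strand) encodes the aminotransferase of the second step. It was between 2.21 and 3.29 cpm in WT (median 2.86) and between 2.80 and 5.52 cpm in cmGch1 KO hearts (median 4.51). In total 4 of the 6 cmGch1 KO libraries were above every WT library, while replicates 5 and 6, at 2.80 and 2.90 cpm, were within the WT range. The means were 2.80 ± 0.386 and 4.22 ± 1.14 cpm (two-sided exact permutation p = 0.0303, n = 6 per group). The log2 fold change was 0.59 (standard error 0.18), with an unadjusted p of 0.00560 and an adjusted p of 0.169 by edgeR. Psat1 passed the filter with 2 WT and 4 cmGch1 KO libraries over 3 cpm, so that its entry into the test depended in part on the group in which it was higher. With 1 surrogate variable as a covariate, an estimate of unlabelled variation between libraries, the adjusted p was 0.0362. The log2 fold change was 0.54 without both libraries with Xist expression (adjusted p = 0.543).

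Psph (ENSMUSG00000029446, chromosome 5, 129765558-129787449, minus strand) encodes the phosphatase that releases serine in the last step. Its level was between 4.46 and 5.95 cpm in WT (median 5.13) and between 4.11 and 6.91 cpm in cmGch1 KO hearts (median 5.35). The cmGch1 KO libraries spanned the WT range, with 1 above it and 2 below it. The means were 5.20 ± 0.640 and 5.25 ± 1.05 cpm, and the log2 fold change was 0.01 with a 95% interval from -0.29 to 0.31 (adjusted p = 0.993 by edgeR). Its direction was negative under 10 of the 22 alternative settings, among them the fit without both libraries with Xist expression (-0.04). Psph overlaps Cct6a on the opposite strand, and the strand setting of the counting was not given in the sources used here.

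Within a library, the second and the last step of serine synthesis did not keep the same ratio in both genotypes. The log2 ratio of Psat1 to Psph, with 0.5 cpm added to each, was -0.79 ± 0.140 in WT and -0.30 ± 0.334 in cmGch1 KO hearts, a difference of 0.49 (two-sided exact permutation p = 0.00433, adjusted p = 0.0130 over 6 ratios, n = 6 per group). WT replicate 2, at -0.53, and cmGch1 KO replicate 6, at -0.72, were the libraries in which the groups overlapped. The ratio of Phgdh to Psph was higher by 0.68 (p = 0.0325, adjusted p = 0.0649 by the same exact test), and that of Psat1 to Phgdh differed by -0.19 (p = 0.442, adjusted p = 0.662). Without the 2 libraries with Xist expression, the ratio of Psat1 to Psph differed by 0.48 (adjusted p = 0.0286 by the same exact test). The genes were chosen with earlier results of these data known, so the p-values of these ratios are a description.

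Asns (ENSMUSG00000029752, chromosome 6, 7675169-7693254, minus strand) encodes asparagine synthetase. It was between 1.77 and 2.92 cpm in WT (median 2.19) and between 2.54 and 5.96 cpm in cmGch1 KO hearts (median 4.31), from 61 to 152 counts per library. In total 5 of the 6 cmGch1 KO libraries were above every WT library, with replicates 2 and 3 highest at 5.96 and 5.24 cpm and replicate 6 within the WT range. The means were 2.29 ± 0.428 and 4.39 ± 1.18 cpm, a ratio of 1.92 (two-sided exact permutation p = 0.00649, n = 6 per group). No WT library and 5 cmGch1 KO libraries exceeded 3 cpm, so Asns lay under the filter by 1 library. In the fit without filter its log2 fold change was 0.92 ± 0.19 (SE, adjusted p = 0.0269 by edgeR). This call was kept in 5 of the 12 fits without filter that left out 1 library, with adjusted p from 0.00434 to 0.0779. The log2 fold change in these 12 fits was between 0.83 and 1.05, so the call lay near the threshold. The call was lost without WT replicate 1, 2, 4 or 5 and without cmGch1 KO replicate 2, 3 or 4. Without both libraries with Xist expression the log2 fold change was 0.72 (adjusted p = 0.249), and 3 of the remaining 4 cmGch1 KO libraries were above every WT library. With sex-linked expression as a covariate it was also 0.72 (adjusted p = 0.172).

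Aldh18a1 (ENSMUSG00000025007, chromosome 19, 40550257-40588463, minus strand) encodes the enzyme of the first reactions from glutamate to proline. Its level was between 8.72 and 9.89 cpm in WT (median 8.97) and between 9.08 and 13.8 cpm in cmGch1 KO hearts (median 11.4). All cmGch1 KO libraries except replicate 6, at 9.08 cpm, were above every WT library. The means were 9.17 ± 0.461 and 11.5 ± 1.67 cpm (two-sided exact permutation p = 0.00649, n = 6 per group). The log2 fold change of 0.33 (standard error 0.10) had an unadjusted p of 0.00475 and an adjusted p of 0.156 by edgeR. At an unadjusted p under 0.05, 7.01% of all tested genes were higher. Without both libraries with Xist expression it was 0.21 (adjusted p = 0.631). A processed pseudogene, Gm15801, overlaps Aldh18a1 on the same strand and had between 47 and 224 counts per library.

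Pycr1 (ENSMUSG00000025140, chromosome 11, 120635712-120643769, minus strand) encodes the reductase of the last step of proline synthesis. It was between 0.868 and 1.64 cpm in WT (median 1.42) and between 1.23 and 2.64 cpm in cmGch1 KO hearts (median 1.90), with 4 of 6 cmGch1 KO libraries above every WT library. No library reached 3 cpm. The means were 1.38 ± 0.277 and 1.89 ± 0.542 cpm (two-sided exact permutation p = 0.0693, n = 6 per group), and in the fit without filter the log2 fold change was 0.43 with a 95% interval from -0.03 to 0.88 (adjusted p = 0.564 by edgeR). Without both libraries with Xist expression it was 0.21 (adjusted p = 0.840), and 2 of the remaining 4 cmGch1 KO libraries were above every WT library. The ratio of Pycr1 to Aldh18a1 within a library differed by 0.03 between the genotypes (two-sided exact permutation p = 0.684, adjusted p = 0.821 over 6 ratios), on the log2 scale with 0.5 cpm added.

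Slc7a5 (ENSMUSG00000040010, chromosome 8, 121881150-121907694, minus strand), the LAT1 light chain, was between 4.61 and 6.49 cpm in WT (median 5.74) and between 7.42 and 12.03 cpm in cmGch1 KO hearts (median 9.89). Every cmGch1 KO library was above every WT library, and replicates 2 and 3, at 11.7 and 12.03 cpm, were the highest. The means were 5.71 ± 0.667 and 9.78 ± 2.01 cpm, a ratio of 1.71 (two-sided exact permutation p = 0.00216, which is the lowest possible with 6 against 6). The log2 fold change was 0.78 ± 0.14 (SE, adjusted p = 0.0117 by edgeR), with a 95% interval from 0.48 to 1.07. Slc7a5 kept its call in each of the 12 fits that left out 1 library, with adjusted p from 0.00638 to 0.0410. Without both libraries with Xist expression the log2 fold change was 0.62 (adjusted p = 0.0885), although the other 4 cmGch1 KO libraries, at 8.74 ± 1.55 cpm, were still above every WT library. With sex-linked expression as a covariate it was 0.61 (adjusted p = 0.0515). On the authors' normalised values the log2 difference was 0.51 (adjusted p = 0.0164, limma).

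Slc3a2 (ENSMUSG00000010095, chromosome 19, 8706882-8723369, minus strand), the heavy chain, was between 32.3 and 35.4 cpm in WT (median 34.1) and between 32.3 and 40.4 cpm in cmGch1 KO hearts (median 37.4), with 4 of 6 cmGch1 KO libraries above every WT library. The means were 33.8 ± 1.25 and 37.0 ± 3.15 cpm (two-sided exact permutation p = 0.0390, n = 6 per group). The log2 fold change of 0.13 had a 95% interval from -0.01 to 0.28 and did not pass the test (adjusted p = 0.491 by edgeR), and it was also 0.13 without both libraries with Xist expression (adjusted p = 0.858). Within a library, the light chain and the heavy chain moved unequally. The log2 ratio of Slc7a5 to Slc3a2 was -2.47 ± 0.160 in WT and -1.89 ± 0.288 in cmGch1 KO hearts, a difference of 0.58 with no overlap between the groups (two-sided exact permutation p = 0.00216, adjusted p = 0.0130 over 6 ratios, n = 6 per group). Without both libraries with Xist expression the difference was 0.45 (adjusted p = 0.0286 by the same exact test). Slc7a5 itself differed by 0.78 and Slc3a2 by 0.13, so this ratio mostly repeats the difference of Slc7a5 and is not separate support. As the genes were chosen with earlier results known, its p-values are a description.

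**Figure D2:**
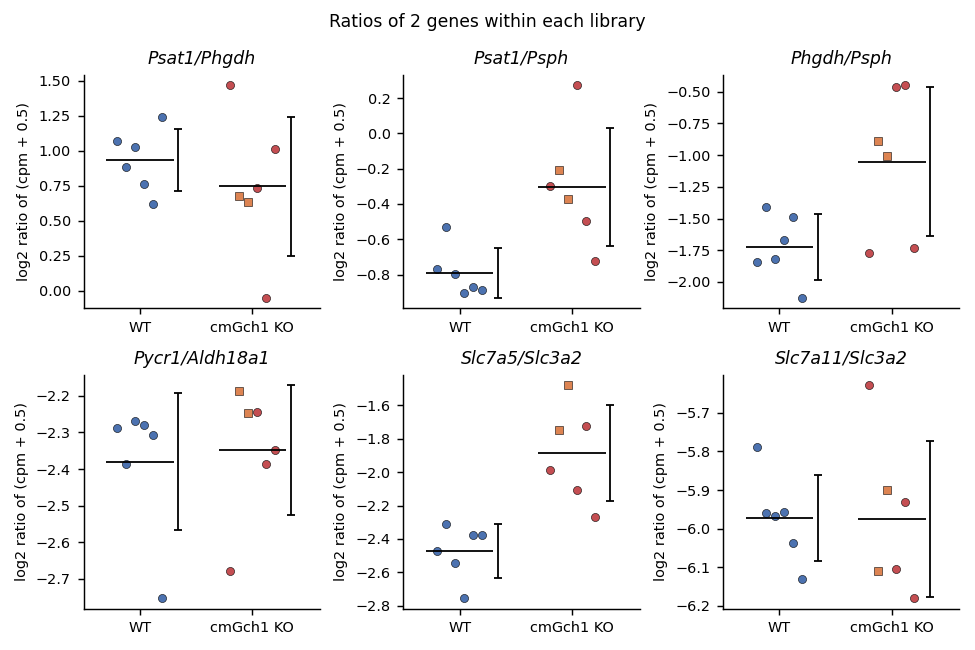
Log2 ratio of 2 genes within each library, with 0.5 cpm added to each (blue, WT; red, cmGch1 KO; orange squares, the cmGch1 KO replicates 2 and 3; line and bar, mean and SD of 6 libraries). The axes do not start at 0. The ratio of Slc7a5 to Slc3a2 separates the genotypes, that of Psat1 to Psph differs by 0.49 with 1 library of each group in the overlap, and that of Pycr1 to Aldh18a1 differs by 0.03.

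Slc7a11 (ENSMUSG00000027737, chromosome 3, 49892526-50443614, minus strand), the cystine transporter light chain, had from 0 to 4 counts per library, with 9 counts over the 6 WT libraries and 15 over the 6 cmGch1 KO libraries. The count was 0 in WT replicates 5 and 6, which allows up to 3 counts, or 0.0948 and 0.137 cpm at their depths, counting error alone being considered. A difference between the genotypes was not detectable at this depth, and no fold change is given.

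**Figure D3:**
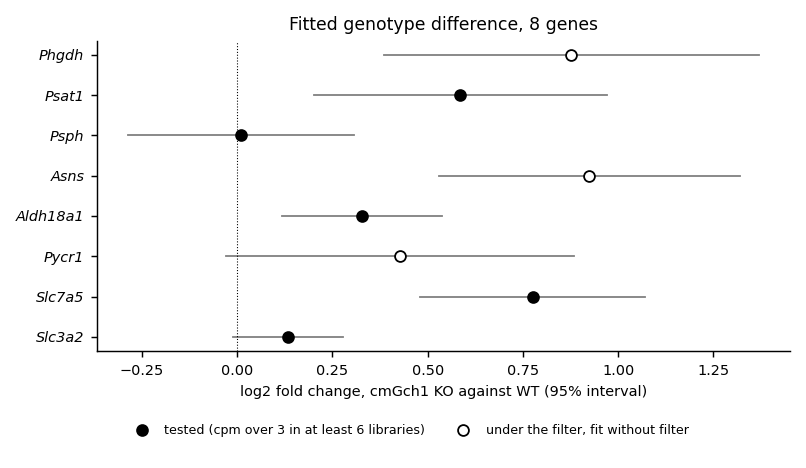
Fitted log2 fold change (cmGch1 KO over WT) with its 95% interval for 8 genes, from the quasi-likelihood fit of edgeR (filled points, genes that passed the filter; open points, genes under the filter, taken from the fit without filter). The interval of Psph runs from -0.29 to 0.31, and those of Slc7a5 and Asns lie from 0.48 to 1.07 and from 0.53 to 1.32.

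The cmGch1 KO libraries did not share these differences equally. Of the 8 genes other than Slc7a11, replicates 2 and 4 were above every WT library in 7, replicates 1, 3 and 5 in 6 and replicate 6 in 2. Replicate 6 was the lowest cmGch1 KO library for 4 of the 8 genes and replicate 2 the highest for 4. Relative to the WT mean, the median log2 difference over the 8 genes was 0.71 in replicate 2 and 0.02 in replicate 6. Among the WT libraries this median lay between -0.05 and 0.08. Psph was below every WT library in replicates 4 and 5, where Phgdh was at 2.85 and 2.92 cpm, its highest values.

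**Figure D4:**
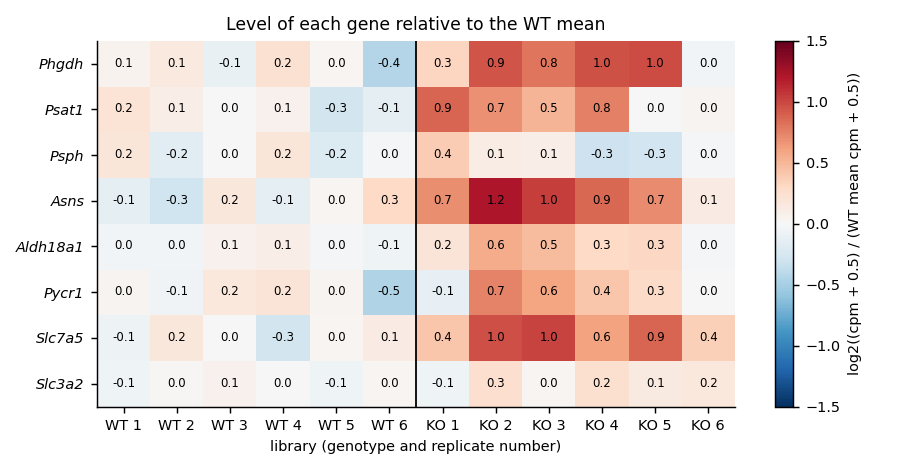
Level of 8 genes in each library as log2 of the cpm over the WT mean, with 0.5 cpm added to both (red, higher; blue, lower; columns, 6 WT and 6 cmGch1 KO libraries). In the column of cmGch1 KO replicate 6, Slc7a5 is at 0.35, Slc3a2 at 0.16 and Asns at 0.12, and the other 5 genes lie between -0.04 and 0.04, whereas replicate 2 has a median of 0.71.

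For each gene, the tested gene with the most similar pattern was sought by Pearson's r of log2 cpm over the 12 libraries after the genotype means were subtracted. It was Pex26 for both Phgdh (r = 0.883) and Aldh18a1 (r = 0.901), Ttc30a1 for Psat1 (r = 0.956), Prdx4 for Psph (r = 0.957), Fastkd5 for Asns (r = 0.848), the serine racemase gene Srr for Pycr1 (r = 0.958), Ttyh3 for Slc7a5 (r = 0.915) and Pelp1 for Slc3a2 (r = 0.897). Each is the highest of all tested genes, and the libraries share depth and composition, so these values are a description.

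The genes around the 3 pathways showed few differences. Of 14 genes that use serine or glycine, 10 were tested and none passed the FDR, and the lowest p was that of Shmt1, which moves the one-carbon unit of serine to folate in the cytosol (log2 fold change 0.35, unadjusted p = 0.00937, adjusted p = 0.211 by edgeR). Of 7 genes of asparagine and aspartate metabolism, 4 were tested and none passed, Asl of the urea cycle having the lowest p (0.31, adjusted p = 0.207). Of 10 genes of proline and glutamate metabolism, 9 were tested and none passed. In this list Oat, which joins ornithine to proline synthesis, and Glud1, glutamate dehydrogenase, were below WT in every cmGch1 KO library. Their log2 fold changes were -0.20 (adjusted p = 0.121) and -0.23 (adjusted p = 0.123). How many of all genes separated in this direction was not counted. At an unadjusted p under 0.05, 1 gene of the serine list and 1 of the asparagine list were higher and 2 of the proline list were lower, against 7.01% higher and 4.51% lower of all tested genes. The median log2 fold change over the tested genes of these 3 lists was -0.05, -0.04 and -0.07, and that of all tested genes was -0.01. With the Wald test of DESeq2 in place of edgeR, Oat and Glud1 were called lower (adjusted p = 0.00748 and 0.0174) and no other gene of the 3 lists was called, where DESeq2 called 1.94% of all tested genes higher and 1.38% lower.

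Of the other light chains that pair with SLC3A2, Slc7a6, Slc7a7 and Slc7a8 were tested and none passed, with log2 fold changes from 0.01 to 0.06. Of 16 further amino acid transporters, 11 were tested, and 1 was called higher and 0 lower by edgeR, against 0.677% and 0.445% of all tested genes. At an unadjusted p under 0.05, 3 of the 11 were higher and 0 lower, against 7.01% and 4.51%. Slc38a1, a sodium-coupled transporter of glutamine and other neutral amino acids, rose from 13.0 ± 1.87 to 24.9 ± 6.30 cpm (log2 fold change 0.94, adjusted p = 0.0105 by edgeR). In total 5 of the 6 cmGch1 KO libraries were above every WT library, and without both libraries with Xist expression the log2 fold change was 0.74 (adjusted p = 0.0799). Slc38a4 was above WT in every cmGch1 KO library with a log2 fold change of 0.45 that missed the threshold (adjusted p = 0.0657). It was called by the Wald test of DESeq2 (adjusted p = 0.00753), with 1 surrogate variable (0.0187), when scaled by library size alone (0.0476) and without cmGch1 KO replicate 1 (0.0327), and was at 0.35 without both libraries with Xist expression (adjusted p = 0.382). Slc1a5, which supplies glutamine for exchange by LAT1, was at 16.2 ± 2.10 and 15.5 ± 2.15 cpm (adjusted p = 0.910).

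Among 21 other genes linked to ATF4, 20 were tested, 3 were called higher and 1 lower by edgeR, against 0.677% and 0.445% of all tested genes. By the Wald test of DESeq2, 4 were called higher (these 3 and Xpot) and 1 lower, against 1.94% and 1.38%. At an unadjusted p under 0.05 by edgeR, 6 of the 20 were higher and 2 lower, against 7.01% and 4.51% of all tested genes. Gdf15, a secreted stress hormone that passed the filter through its 6 cmGch1 KO libraries alone, rose by 1.94 on the log2 scale (adjusted p = 0.00149 by edgeR), Mthfd2, the mitochondrial folate enzyme, by 1.85 (adjusted p = 6.39e-04) and Atf5, a transcription factor of the mitochondrial stress response, by 0.50 (adjusted p = 0.0438). Gdf15 and Mthfd2 kept their calls without both libraries with Xist expression (adjusted p = 0.00781 and 0.00487). Atf5 kept its call in 3 of the 12 fits that left out 1 library (WT replicate 1, cmGch1 KO replicate 1 or 6) and was at 0.33 without both libraries with Xist expression (adjusted p = 0.139). Gpt2, the mitochondrial alanine aminotransferase, fell by 0.37 (adjusted p = 0.0114), and its call was lost at nearly the same size without both libraries with Xist expression (-0.34, adjusted p = 0.101) and with the sex-linked covariate (-0.34, adjusted p = 0.0603). Atf4 mRNA had means of 72.6 ± 10.7 and 71.9 ± 5.86 cpm in WT and cmGch1 KO hearts (adjusted p = 0.984), and Ddit3 and Trib3 did not pass the test (log2 fold changes of 0.02 and 0.51, adjusted p = 0.985 and 0.50). In cmGch1 KO replicate 6, the lowest cmGch1 KO library for 4 of the 8 genes above, Mthfd2 was also the lowest of its group at 6.87 cpm, whereas Gdf15 was the highest at 11.2 cpm. None of the 4 eIF2α kinase genes, of 10 endoplasmic reticulum chaperone and stress genes, or of 8 NRF2-linked glutathione and redox genes passed the FDR by edgeR. At an unadjusted p under 0.05, 1 of the kinases (Eif2ak2) and 1 of the redox genes (Srxn1) were higher and 2 of the chaperone genes (Herpud1 and Dnajb9) were lower, against 7.01% higher and 4.51% lower of all tested genes. By the Wald test of DESeq2 in place of edgeR, 0 genes of these 3 lists were called.

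**Figure D5:**
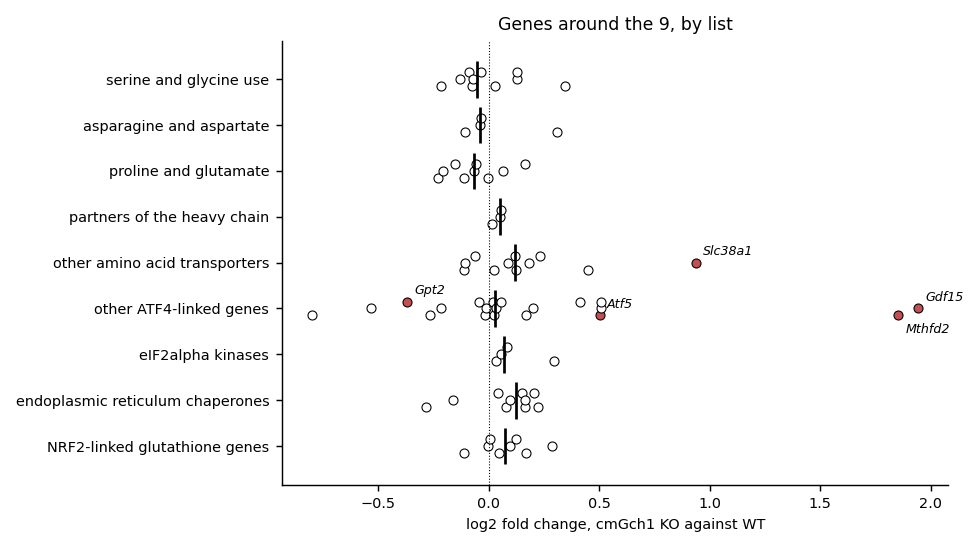
Fitted log2 fold change (cmGch1 KO over WT) for the tested genes of 9 lists around amino acid synthesis and stress (points, genes; red, FDR under 0.05; black lines, median of each list). Slc38a1, Gdf15, Mthfd2 and Atf5 were called higher and Gpt2 lower, and the medians of the 9 lists lie between -0.07 and 0.12.

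Markers of other cell types were measured in the same libraries. The summed level of 4 macrophage markers was between 76.9 and 95.8 cpm in WT and between 95.6 and 116 cpm in cmGch1 KO hearts (two-sided exact permutation p = 0.00433, adjusted p = 0.0216 over 10 sums). Each of the 4 was higher at an unadjusted p under 0.05 by edgeR, against 7.01% of all tested genes, and none passed the FDR. The sum of 6 cardiomyocyte markers was between 49500 and 53129 cpm in WT and between 43726 and 50751 cpm in cmGch1 KO hearts, 5 of the 6 being lower and none passing (two-sided exact permutation p = 0.00433, adjusted p = 0.0216 over 10 sums). Sums of the fibroblast, endothelial, blood, adipocyte, nerve and glia, atrial, and smooth muscle and pericyte markers had adjusted p from 0.444 to 0.909, and that of 2 proliferation markers, with overlapping ranges, had an exact permutation p of 0.0390 (adjusted p = 0.130). Of 5 smooth muscle and pericyte markers, Acta2 was called higher (log2 fold change 0.66, adjusted p = 0.00672), against 0.677% of all tested genes. The other 4 did not pass, and 3 of the 5 were lower (median log2 fold change -0.06). No marker gene was at 0 in all libraries. The macrophage sum was higher and the cardiomyocyte sum lower in the genotype in which Slc7a5 and Asns were higher, with overlapping ranges of both sums. Their part in these results was not tested. In these bulk samples, more cells of a type and more RNA per cell cannot be told apart.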

How the data were processed

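RNA-seq of the left ventricle was analysed for WT (n = 6) and cmGch1 KO mice (n = 6). Genotypes and replicate numbers came from the sample labels, which do not say which mice shared a litter or a run. The authors made stranded libraries, aligned them with HISAT2 and counted reads with featureCounts, and the submitters' processing notes name GRCm38, while the annotation and the strand setting are not given in the sources used here. They deposited raw counts per Ensembl gene, and a table of normalised values on a log2 scale, used as an alternative with limma 3.58.1. Of 26921 identifiers, 26545 were found in GENCODE M21.

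The main test was edgeR 4.0.16 in R 4.3.3 (TMM, quasi-likelihood, cpm over 3 in at least 6 libraries, FDR 0.05 by the Benjamini-Hochberg method over 11225 genes). The 4 genes under this filter were fitted without it. The fit was tested on simulated counts. Cpm values and log2 ratios (0.5 cpm added) were compared by exact permutation tests over 924 splits, two-sided, and standard errors were taken from the quasi-likelihood F statistic. As a check for repeated deposits of a library, counts of libraries of 1 genotype were compared, and each pair differed by more than sampling noise (chi-square per degree of freedom at least 16.3). The 9 genes, lists and tests were chosen with earlier results of these data known. The text names the 9 genes, Gch1, of each list the genes under the FDR and, where these are fewer than 3, the next by p up to 3, and Atf4, Ddit3 and Trib3. Slc1a5, Xpot and Acta2 were named after their values were seen. Alternatives were DESeq2 1.42.0, other scalings and filters, sex-linked expression, a surrogate variable from sva 3.50.0, the replicate number, and leaving out libraries. Fits that combined the absence of a filter with left-out libraries, the sex-linked covariate or the replicate number were added after seeing the data.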

Additional observations from a re-analysis of the deposited data

Results flagged for a closer look

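In 4 of 92 groups of 6 values examined, 1 library lay farther from the rest than Dixon's 95% criterion, where chance gives about 1 in 20. Aldh4a1, which oxidises the proline breakdown intermediate pyrroline-5-carboxylate, had 66.5 cpm in replicate 2 of the cmGch1 KO hearts, the nearest library having 75.6 cpm. Shmt1 was at 10.1 cpm in WT replicate 5, with the nearest at 8.56 cpm. The log2 ratio of Psat1 to Psph was -0.53 in WT replicate 2, with the nearest at -0.77, and that of Pycr1 to Aldh18a1 was -2.75 in WT replicate 6, with the nearest at -2.39.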

How the results depend on the processing

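Genes called at an FDR of 0.05 numbered 76 higher and 50 lower in the main comparison. They numbered 116 higher and 36 lower when scaled by library size alone, 218 higher and 155 lower with the Wald test of DESeq2, 38 and 24 with the sex-linked covariate, 305 and 331 with 1 surrogate variable, 20 and 18 without both libraries with Xist expression, and from 45 to 116 higher and from 30 to 97 lower when 1 library was left out. Of the 9 genes, 1 (Slc7a5) was called in the main comparison and in every fit that left out 1 library. This number was 2 without filter and with a mean over 3 cpm (with Asns, which passes that filter through its cmGch1 KO libraries, its WT mean being 2.29 cpm), 2 with 1 surrogate variable (with Psat1), and 0 with the sex-linked covariate and without both libraries with Xist expression.

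With the replicate number as a block, 112 genes were called higher and 76 lower. Of the 9 genes 2 were higher, Slc7a5 (adjusted p = 0.0135) and Psat1 (adjusted p = 0.0457, edgeR). Without filter, Slc7a5 (adjusted p = 4.33e-04), Asns (0.00567), Phgdh (0.00899) and Psat1 (0.0317) were called higher with this block by edgeR. The share of all genes called in that fit was not counted. The numbers are not known to pair the mice: deviations of same-numbered libraries from their genotype mean correlated with r from -0.13 to 0.68, and 3 of 6 matched best with their own number.

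Directions turned for genes with differences near 0. Psph was at -0.0079 without filter, -0.037 with the sex-linked covariate, -0.00083 with the replicate block, -0.038 without both libraries with Xist expression, -0.0021 on the authors' normalised values, and from -0.084 to 0.073 without 1 library. Atf4 was at 0.063 and Got1 at 0.039 with library size alone. Slc7a6 was at -0.0029 without filter, and Slc7a7 at -0.14 with the sex-linked covariate and also -0.14 without both libraries with Xist expression. Without 1 library, Atf4 ranged from -0.084 to 0.029, Ddit3 from -0.071 to 0.16, Slc7a6 from -0.038 to 0.050, Slc7a7 from -0.083 to 0.14 and Slc7a8 from -0.025 to 0.14. The ratio of Pycr1 to Aldh18a1 was at -0.069 with 2 cpm added, -0.035 without both libraries with Xist expression and from -0.043 to 0.097 without 1 library. That of Slc7a11 to Slc3a2, with 0 to 4 counts of Slc7a11 per library, depends on the cpm added and shows no direction, and was at 0.30 with 0.1 cpm added, 0.012 without both libraries and from -0.072 to 0.038 without 1 library. That of Phgdh to Psph ranged from 0.56 to 0.82 without 1 library and passed the threshold without cmGch1 KO replicate 1 or 6 (adjusted p = 0.0260, exact permutation test). The cause of these changes was not tested. Phgdh, Pycr1 and Slc7a11 lie under 3 cpm on average in both genotypes.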
